A study of Mus musculus with 6 samples.

Results

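Bone marrow-derived macrophages that had lost Rad21 were compared with wild-type macrophages at rest, before any inflammatory stimulus. Rad21 is the kleisin subunit of cohesin, a ring-shaped complex built on the Smc1a and Smc3 proteins that holds sister chromatids together in dividing cells. In interphase cohesin also extrudes chromatin loops, many of which end at sites bound by Ctcf, and brings enhancers near promoters. Resting macrophages carry a low, constitutive expression of interferon-stimulated genes, of chemokines and of receptors for microbial products, and this resting programme sets their readiness to respond.

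The data are single-cell transcript counts made with MARS-seq, a plate-based method in which each transcript molecule is tagged with a unique molecular identifier (UMI), so that amplified copies are counted once. The comparison used every cell of the untreated Rad21-/- sample and of the untreated wild-type sample except wells with more than 25000 UMIs, which left 505 of the 1362 cells in the matrix, 267 of them Rad21-/- and 238 wild-type. Cells of the wild-type group were Rad21 WT/WT and cells of the Rad21-/- group came from Rad21 lox/lox mice, both on a mixed genetic background. Both groups carried creERT2/creERT2 at the Rosa26 locus, an inducible recombinase active in any cell type that receives the drug, and both were treated with 200 nM 4-hydroxy-tamoxifen in culture and used on day 7 of growth in L929-conditioned medium. The deletion was therefore made during culture. The study used mice of both sexes aged 6 weeks to 6 months, and the age, sex and number of mice behind these 2 samples are not given in the sources used here.

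Each genotype at rest was 1 sample. There was no replicate, no test was run and no p-value is given, and the intervals cover counting error only. The 2 samples shared 8 library pools, each of which held both genotypes, and every ratio was also computed within each pool. Pools are portions of the same 2 samples and not replicates. The Rad21-/- cells held 1647811 UMIs in all, with a median of 5544 per cell (range 2106 to 24127), and the wild-type cells held 1445275, with a median of 5859.5 (range 2289 to 22785). Pools held 19 to 48 Rad21-/- and 13 to 47 wild-type cells, and no well barcode was used by 2 cells of a pool. Wells above the limit numbered 3 of the Rad21-/- and 1 of the wild-type sample. Random thinning brought every cell to 3000 UMIs and dropped the 16 Rad21-/- and 20 wild-type cells that were shallower, after which the median number of genes detected was 1631 in Rad21-/- and 1680.5 in wild-type cells. All 12 macrophage markers examined were found in at least 5% of cells of a sample, and the neutrophil list, of which 2 of 12 genes were among the matrix rows, held 1 UMI in Rad21-/- and 0 in wild-type cells. A count of 0 allows up to 3 UMIs.

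Rad21 itself was 10.7-fold lower in the Rad21-/- sample. It held 9 UMIs, or 5.46 CPM (the UMIs of a gene divided by all UMIs of the sample and scaled by 1e6; 95% Poisson interval 2.50 to 10.4), against 93 UMIs, or 64.3 CPM (51.9 to 78.8), in wild-type cells. The log2 ratio, computed here and throughout with 1 UMI added to each sample, was -3.42 (exact conditional interval -4.73 to -2.57). Rad21 lies on chromosome 15 of GRCm38, from 51962604 to 51993538. In Rad21-/- cells its level was between 0 and 11.3 CPM in the 8 pools, with a median of 4.3 CPM, and in wild-type cells between 40.95 and 96.6 CPM, with a median of 55.8 CPM. The genotypes did not overlap in any pool. Cells with a Rad21 UMI made up 2.62% of the Rad21-/- sample (interval by the Clopper-Pearson method 1.06 to 5.33) and 25.6% of the wild-type sample (20.2 to 31.7), or 0.398% and 15.1% at 3000 UMIs per cell. No cell type that should lack a given gene was sorted, so the share of cells positive through free RNA alone could not be estimated. The 9 remaining UMIs do not tell deleted from undeleted cells, because most wild-type cells also had no Rad21 UMI.

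The other cohesin genes stayed within 1.5-fold. Of 20 listed cohesin genes 18 were in the matrix and 10 reached 100 UMIs over both samples, the minimum set for a gene to be compared, and 1 of these 10, Rad21, was past 1.5-fold. Smc1a and Smc3, the ring's long arms, had log2 ratios of -0.38 (-0.98 to 0.20) and -0.37 (-0.80 to 0.05). Stag1 and Stag2, the alternative subunits that bind Rad21, had 0.36 (-0.01 to 0.74) and 0.34 (-0.11 to 0.81), the loader Nipbl 0.02, the release factor Wapl 0.12 and Ctcf -0.08. The intervals of all these genes reach to both sides of 0. Of Rad21, Smc1a, Smc3, Stag1 and Stag2, 2 were lower in at least 7 pools, Rad21 among them, and 1 was higher. The genes near Rad21 on chromosome 15 did not move with it: 0 of 8 compared neighbours were past 1.5-fold, with a median log2 ratio of 0.11. The 187 compared genes of chromosome 15 had a median of -0.01.

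Across the transcriptome the larger differences at rest lay more often below than above the wild-type level. Of 5444 compared genes, 553 were at least 1.5-fold lower in Rad21-/- cells (10.2%) and 279 at least 1.5-fold higher (5.12%). At least 2-fold differences were found for 201 genes in the lower and 62 genes in the higher direction. The median log2 ratio of all compared genes was -0.02, with 10% of genes below -0.59 and 10% above 0.43, and 52.8% of genes lay below 0. When a gene also had to lie on the same side of 0 in at least 7 of the 8 pools, 425 genes remained lower (7.81%) and 219 higher (4.02%), and 282 of the lower genes did so in all 8 pools. The side in a pool was read, here and throughout, from the log2 ratio with 1 UMI added. Read from CPM with none added, 412 genes were lower and 225 higher in at least 7 pools. The percentages of 10.2% and 5.12%, or 7.81% and 4.02% with the pool criterion, are the background for the gene lists that follow. The ratio of the 2 samples depends on what the counts are scaled to: the median ratio over genes with at least 1000 UMIs lay 0.10 above 0 on the log2 scale. Scaling to that median gave 742 genes lower and 187 higher, and all log2 ratios given here become 0.10 smaller with it.

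**Figure D1:**
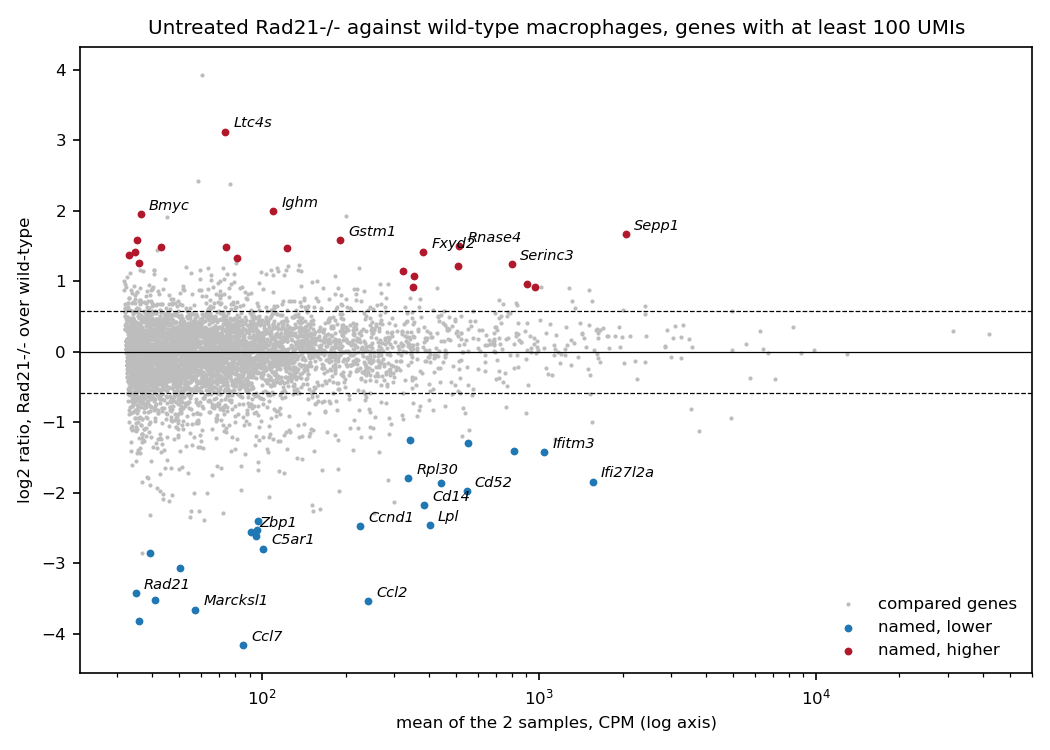
Each point is 1 of the 5444 compared genes, with the mean CPM of the 2 samples on the horizontal log axis and the log2 ratio of Rad21-/- over wild-type on the vertical axis, and dashed lines at 1.5-fold. Blue and red points are genes named in the text as lower or higher, with labels for some: the lower ones reach -4.16 (Ccl7), and of the named higher ones Ltc4s reaches 3.13.

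The lowest ratios ran to -4.16 on the log2 scale, and the first of these genes were chemokines. Ccl7 and Ccl2, neighbouring genes on chromosome 11 (82045712 to 82047525 and 82035577 to 82037452) whose products attract monocytes, were 17.9-fold and 11.6-fold lower. Ccl7 was at 0 to 23.3 CPM in the pools of Rad21-/- cells (median 7.0 CPM) and at 110 to 300.3 CPM in those of wild-type cells (median 152.97 CPM), without overlap. Its log2 ratio was -4.16 (-5.15 to -3.48). Ccl2 was at 10.3 to 54.04 CPM (median 30.3 CPM) against 165 to 614.3 CPM (median 460.9 CPM), with a log2 ratio of -3.54 (-3.96 to -3.18), and was detected in 9.96% of Rad21-/- and 50.5% of wild-type cells at 3000 UMIs per cell. The pool ranges of both chemokines were fully apart.

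Other genes of the lowest 15, each with a pool range that did not overlap between genotypes, were Marcksl1, a regulator of the actin cytoskeleton (-3.66, interval -4.70 to -2.94), Fam20c, a kinase of secreted proteins (-3.52, -4.75 to -2.72), Clec4e, a lectin receptor for mycobacterial glycolipid (-3.06, -3.96 to -2.40), Slamf7, a receptor of the SLAM family (-2.86, -3.83 to -2.15), and C5ar1, the receptor for complement fragment C5a (-2.79, -3.33 to -2.34). Id2, an inhibitor of basic helix-loop-helix transcription factors, was at 26.1 CPM against 163.3 CPM (-2.62, -3.15 to -2.17). Zbp1, a sensor of Z-form nucleic acid, had -2.55, Ccnd1, which encodes cyclin D1, -2.48, Lpl, lipoprotein lipase, -2.45, and Cd72, a lectin-like receptor known from B cells, -2.40. Pools did overlap for 2 genes of the lowest 15, Ly6a (-2.52; Rad21-/- 0 to 46.6 CPM, wild-type 40.95 to 252.1 CPM) and the predicted gene Gm17268 (-3.82), which was higher in 1 of 8 pools.

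Among genes with at least 1000 UMIs, where counting error is small, the lowest ratios belonged to Lpl, Cd14, Cd52, Ccl9, Ifi27l2a, Rpl30, Ifitm3, Ly6e, Lilrb4a and Anxa1. Cd14, which hands LPS to Tlr4, was at 67.9 to 170.2 CPM in the pools of Rad21-/- cells (median 135.5 CPM) and at 532.2 to 841.1 CPM in those of wild-type cells (median 651.2 CPM). Its log2 ratio was -2.17 (-2.39 to -1.97), and it was detected in 35.1% of Rad21-/- cells (29.2 to 41.3) and 77.1% of wild-type cells (70.9 to 82.5) at 3000 UMIs per cell. Lpl was at 33.8 to 170.7 CPM against 522.8 to 814.3 CPM. Cd52, a small glycoprotein anchored in the membrane of leukocytes, was at 221 CPM in Rad21-/- and 872 CPM in wild-type cells (-1.98, -2.15 to -1.81), and Ccl9, another chemokine, at 191 CPM and 695 CPM (-1.86, -2.05 to -1.68). Lilrb4a, an inhibitory receptor, had -1.30 and Anxa1, a phospholipid-binding protein with anti-inflammatory actions, -1.25. For all 10 genes the pool ranges of the genotypes were apart.

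Rpl30 stood alone among the ribosomal protein genes. It lies on chromosome 15 from 34440505 to 34443276 and was at 78.8 to 202.0 CPM in the pools of Rad21-/- cells against 289.9 to 832.3 CPM in those of wild-type cells, with a log2 ratio of -1.79 (-2.004 to -1.58). Of 43 compared ribosomal protein genes it was the 1 past 1.5-fold. The other 42 lay between -0.40 (Rpsa) and 0.48 (Rps29), and the median of the list was 0.16. The ratio of Rpl30 was nearly the same in cells given LPS, -1.87 at 2 h and -1.79 at 8 h.

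The genes with the highest ratios were fewer and less extreme. Ltc4s, the synthase that makes leukotriene C4, was at 77.4 to 236.4 CPM in the pools of Rad21-/- cells (median 137.5 CPM) and at 6.4 to 32.2 CPM in those of wild-type cells (median 15.7 CPM), an 8.73-fold difference (log2 ratio 3.13, 2.54 to 3.91). It was detected in 27.5% of Rad21-/- (22.1 to 33.5) and 3.21% of wild-type cells (1.30 to 6.50) at 3000 UMIs per cell. The genotypes were apart in every pool.

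Sepp1, the selenium transport protein that resident macrophages express strongly, had the highest ratio among abundant genes. It was at 2117 to 3702 CPM in the pools of Rad21-/- cells (median 2989 CPM) and at 587 to 1423 CPM in those of wild-type cells (median 775 CPM), without overlap, and its log2 ratio was 1.67 (1.58 to 1.75). The share of cells with a Sepp1 UMI was 96.4% and 87.6% at 3000 UMIs, so that most cells of both genotypes had the transcript and the difference lay in its level.

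Ighm, the immunoglobulin heavy chain constant gene, was at 176 CPM in Rad21-/- and 43.6 CPM in wild-type cells (2.00, 1.62 to 2.43), with 34.3% and 10.6% of cells positive at 3000 UMIs and no cell holding more than 2.76% of the Rad21-/- UMIs. Its pools overlapped (56.3 to 225.4 CPM against 0 to 79.0 CPM), though it was higher in all 8. Blnk, an adaptor of the B cell receptor that myeloid cells also express, had 0.92 (0.55 to 1.32) and was the other compared gene of the B cell list. Of that list of 14 genes 8, among them Cd79a and Cd79b, were not among the matrix rows, and the remaining 4 held 58 UMIs in Rad21-/- and 63 in wild-type cells. The summed level of the list was 322 CPM in Rad21-/- and 145.3 CPM in wild-type cells, and whether B cells had a part in the Ighm difference was not tested.

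Further genes of the highest 15 were Bmyc, a relative of Myc (1.95), Adgre5, the adhesion receptor also called Cd97 (1.59), Gstm1, a glutathione transferase (1.58), Rnase4, a secreted ribonuclease (1.497), Dbp, a clock-controlled transcription factor (1.49), Ypel3 (1.49), Cnrip1, which binds the cannabinoid receptor (1.47), Fxyd2, a modulator of the sodium pump (1.42), Tmem51 (1.41), the predicted gene Gm3934 (1.38), Adssl1, an enzyme of adenine nucleotide synthesis (1.33), and Hsd17b11, a short-chain dehydrogenase of lipid droplets (1.27). The gene Ang overlaps Rnase4 and also had a higher level (1.19), and reads of the 2 genes may have been divided between them. With 1 UMI added, Adgre5 and Dbp lay above 0 in 7 pools. Gm3934 was higher in 7 pools and had no UMI of either genotype in the other, and the remaining genes of the highest 15 were higher in all 8.

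The abundant genes with the highest ratios included Sepp1, Rnase4, Fxyd2, Serinc3 (1.24), Gng2, a G protein subunit (1.21), S100a1 (1.14), Wbp5 (1.08), Cd63-ps (0.96) and Hsd17b4 (0.92). Cd63-ps is a pseudogene of Cd63 that lies inside Hsd17b4 in the RefSeq annotation, and Cd63 had the same ratio (0.92), so the counts of these 3 genes may come in part from the same transcripts and are uncertain one by one. Fxyd2 was at 471.7 to 756.2 CPM in the pools of Rad21-/- cells against 139.6 to 290.5 CPM in those of wild-type cells. Serinc3 was at 934.4 to 1309 CPM against 230.2 to 705.3 CPM. The pool ranges of S100a1 overlapped between the genotypes.

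**Figure D2:**
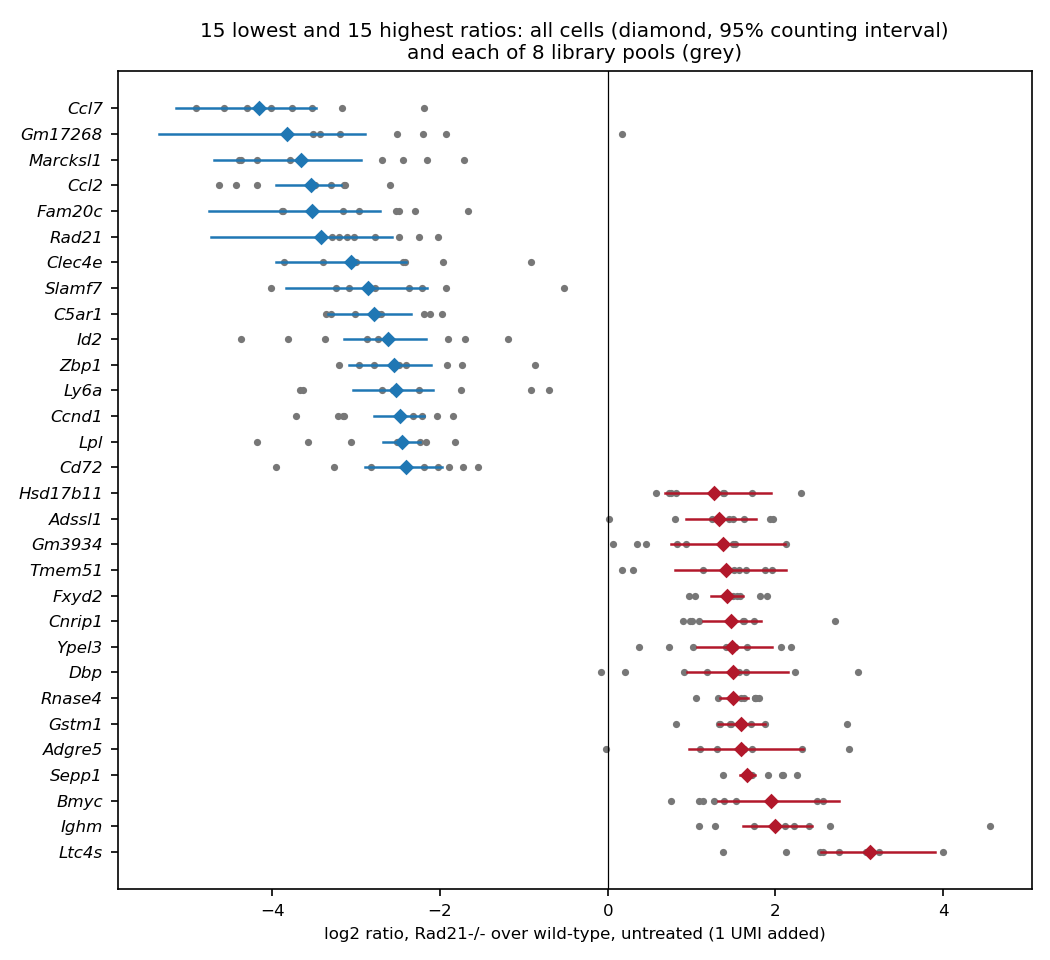
The log2 ratio of Rad21-/- over wild-type is shown on the horizontal axis for the 15 genes with the lowest (blue) and the 15 with the highest ratio (red), as a diamond for all cells with its 95% counting interval and as grey points for the 8 library pools. All pool points lie on the side of the diamond except 1 of Gm17268 and 1 each of Adgre5 and Dbp, which lie close to 0, and 1 of Gm3934, from a pool with no UMI of it in either genotype, is set by the added UMI alone.

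The largest coherent group was that of interferon-stimulated genes, which antiviral cytokines switch on through a complex that holds Stat2 and Irf9 and is bound to a short DNA element. Promoters were those of RefSeq (GRCm38.p6, a later patch of the build the counts refer to), from 250 bases before to 50 after the gene start. The core of this element was searched on either strand as 2 copies of GAAA with any 2 bases between them. It was found in 15 of the 26 compared list genes that had a promoter there (57.7%). Among genes with a promoter there, it was found in 4.49% of all compared genes and in 3.99% of all genes. The sites of 6 genes are printed because the levels of these genes are given next. Each is 30 bases on the gene's own strand, and capitals mark the motif, which in 4 of them is read on the opposite strand.
Ifit3 (chr19:34583397-34583426, plus strand): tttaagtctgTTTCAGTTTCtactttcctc
Rsad2 (chr12:26456553-26456582, minus strand): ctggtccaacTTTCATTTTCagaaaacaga
Isg15 (chr4:156200865-156200894, minus strand): aaaggaaaccGAAACAGAAAatagctctgg
Oas3 (chr5:120777715-120777744, minus strand): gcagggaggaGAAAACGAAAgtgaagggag
Slfn8 (chr11:83020839-83020868, minus strand): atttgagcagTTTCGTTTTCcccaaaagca
Stat2 (chr10:128270266-128270295, plus strand): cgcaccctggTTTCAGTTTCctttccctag
Outside the list, 264 genes lower in at least 7 pools had a promoter there, and the motif was found in 22 of them (8.33%). Of the genes higher in at least 7 pools, it was found in 2 of 152 (1.32%). A match to these letters is a description of the sequence, not a bound site.

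Of the 60 listed interferon-stimulated genes 36 were compared, and all 36 had a ratio below 0. At least 1.5-fold lower levels were found for 33 of 36, each lower in at least 7 pools. By both criteria 7.81% of all compared genes were lower. Of the 36 genes 0 were at least 1.5-fold higher. The median log2 ratio of the 36 was -1.37, against -0.02 over all compared genes. The 24 members under 100 UMIs all had fewer UMIs in Rad21-/- than in wild-type cells, such as 15 against 82 for Ifit1 and 3 against 19 for Mx1. Summed over the 60 genes, the level was 4192 CPM in Rad21-/- and 11082 CPM in wild-type cells (log2 ratio -1.40, -1.44 to -1.36). In the pools it ran from 3422 to 4702 CPM in Rad21-/- and from 9254 to 12613 CPM in wild-type cells, so the genotypes were far apart in each of the 8.

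The members printed above were all lower. Ifit3, which binds viral RNA together with related proteins, was at 17.6 CPM in Rad21-/- and 92.02 CPM in wild-type cells (-2.35, -3.02 to -1.80), Rsad2, the antiviral enzyme viperin, at 22.5 CPM and 91.3 CPM (-1.997), and Isg15, a ubiquitin-like modifier, at 125 CPM and 442 CPM (-1.82). Oas3, which makes the activator of RNase L, had -1.65 and Slfn8 -1.39. Of the transcription factors, Irf7, the amplifier of type I interferon production, was at 54.4 to 154.7 CPM in the pools of Rad21-/- cells (median 94.2 CPM) and at 331.5 to 612.0 CPM in those of wild-type cells (median 495.6 CPM), with a log2 ratio of -2.13 (-2.38 to -1.90). Stat2 had -1.35 (-1.85 to -0.89), and Irf9, at -0.53 (-1.01 to -0.07) and lower in 6 pools, was within 1.5-fold. Abundant effectors were lower too: Ifi27l2a was at 680 CPM against 2441 CPM (-1.84, -1.94 to -1.75), Ifitm3, which blocks virus entry, at 567 CPM against 1518 CPM (-1.42), Ly6e at 442 CPM against 1177 CPM (-1.41) and Bst2, which tethers budding virus, at 636 CPM against 1158 CPM (-0.86). The smallest difference was that of Samhd1 (-0.26), a hydrolase of deoxynucleotides.

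Of 15 listed ligand, receptor and signalling genes upstream of this group 7 were compared, 4 with ratios below and 3 above 0. For the listed genes under the minimum, whether the genotypes differed cannot be told. No UMI of Ifnb1, which encodes interferon beta, was found in either sample, which allows up to 3 UMIs in each. Of 7 compared genes of the pathway 2 were at least 1.5-fold lower, Ifngr1 (-0.77) and Irf2 (-0.70), and the median was -0.06. Both were lower in at least 7 pools, as were 7.81% of all compared genes by the same criteria. The receptor chain Ifnar2 had 0.07 and the kinase Jak1 -0.06, both with intervals that include 0, and Ifnar1 held 33 and 36 UMIs, below the minimum.

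The difference in interferon-stimulated genes was spread over cells. At 3000 UMIs per cell, the median Rad21-/- cell held 11 UMIs of the 60 genes and the median wild-type cell 32.5. The middle 80% of cells lay between 6 and 20 UMIs in Rad21-/- and between 20 and 51.3 UMIs in wild-type cells. Below the wild-type 10th percentile of 20 UMIs lay 89.2% of Rad21-/- cells and 9.17% of wild-type cells, and no cell of either genotype was at 0.

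Genes of MHC class I presentation, many of which interferon also raises, were lower as a group. Of 14 listed genes 11 were compared, all 11 were below 0 in at least 7 pools, and 9 were at least 1.5-fold lower, with a median of -0.72. Tap1, a subunit of the peptide transporter, was at 23.7 CPM against 76.1 CPM (-1.66, -2.25 to -1.15). The immunoproteasome subunits Psmb10, Psmb8 and Psmb9 had -1.22, -1.03 and -0.63. B2m, the light chain of all class I molecules, was at 2565 CPM against 4523 CPM (-0.82, -0.87 to -0.76), and the classical heavy chains H2-K1 (-0.47) and H2-D1 (-0.25) were within 1.5-fold. The class I genes of the mouse are close relatives, so counts of a single H2 gene are uncertain. At 3000 UMIs per cell the median was 15 UMIs of these genes in Rad21-/- and 27 in wild-type cells.

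Among the compared genes of the inflammatory list, chemokine genes had the lowest ratios, with 1 exception. Of 44 inflammatory genes 42 were in the matrix and 11 were compared, since most are silent at rest: 8 were at least 1.5-fold lower and 1 higher, with a median of -1.86. Beside Ccl7, Ccl2 and Ccl9, lower levels were found for Ccl6 (76.5 CPM against 301 CPM, -1.97), Ccl4 (71.6 CPM against 207 CPM, -1.52), Cxcl16, a transmembrane chemokine (-2.03), and Tnfaip2 (-0.64). Ccl5 also had a low ratio (-2.85), but 1 wild-type cell held 69.1% of its UMIs there, and without the cell with most UMIs in each sample the ratio was -1.40. Ccl3, the neighbour of Ccl4 in the chemokine cluster of chromosome 11, went the other way, at 558 CPM in Rad21-/- and 297 CPM in wild-type cells (0.91, 0.74 to 1.08). It was higher in all 8 pools, but the pool ranges overlapped (351.3 to 810.6 CPM against 155.8 to 408.0 CPM). Of genes under the minimum, Cxcl10 held 11 UMIs in Rad21-/- and 57 in wild-type cells, Saa3 9 and 65, and Il1rn 9 and 44, while Tnf held 5 and 11 and Il6 4 and 3. Of the cytokine and cytokine antagonist genes 11 were in the matrix and 0 were compared. Summed, they held 102 UMIs in Rad21-/- and 215 in wild-type cells (log2 ratio -1.26, -1.62 to -0.92). In the LPS samples Ccl3 had a ratio of -0.95 at 2 h and -0.38 at 8 h, so its direction at rest was not that after LPS.

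**Figure D3:**
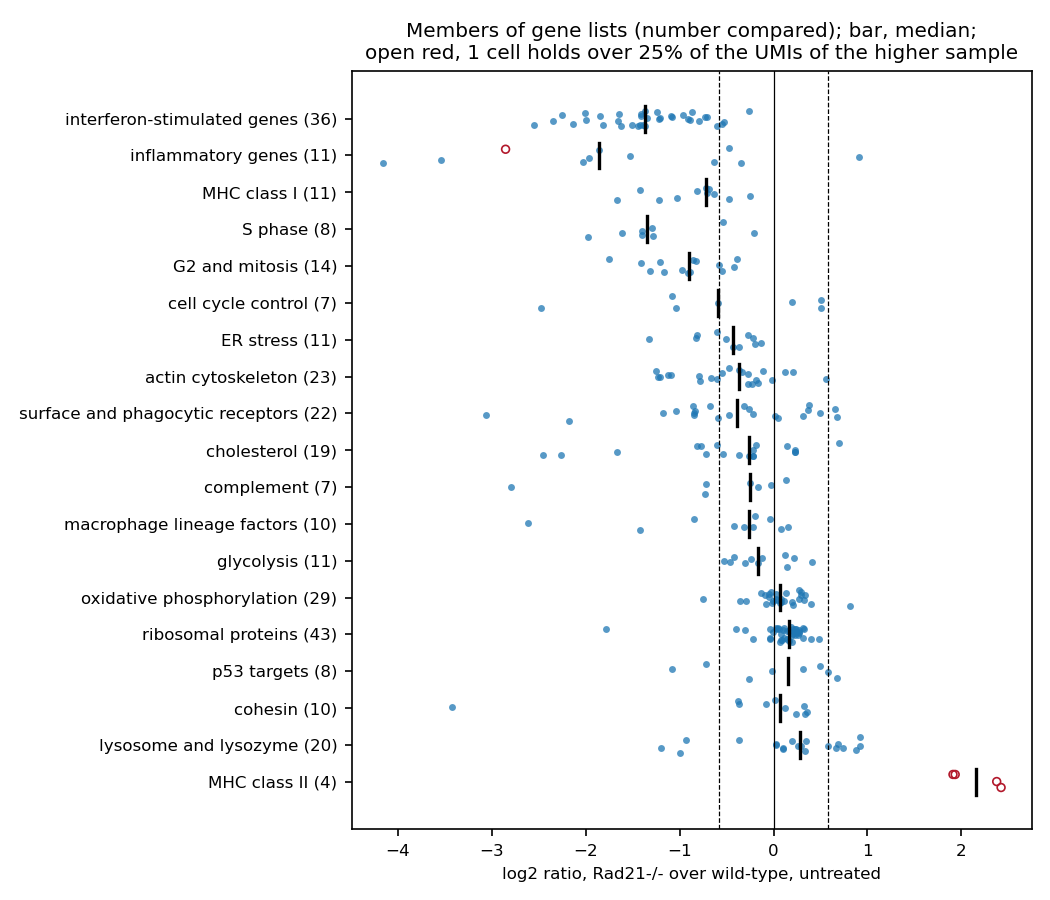
Each point is 1 compared gene of a list, placed by its log2 ratio of Rad21-/- over wild-type on the horizontal axis, with the number of compared genes after the name of each list, a bar at the median and dashed lines at 1.5-fold. Open red points are genes of which 1 cell held over 25% of the UMIs of the higher sample. The lists of interferon-stimulated, MHC class I, S phase, G2 and mitosis and ER stress genes lie wholly below 0. The ribosomal and oxidative phosphorylation lists are centred near 0.

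MHC class II genes were the highest list by median but rested on few cells. Cd74, the invariant chain, was at 319 CPM in Rad21-/- and 83.03 CPM in wild-type cells (1.93), and H2-Aa, H2-Eb1 and H2-Ab1 had ratios of 2.38, 2.42 and 1.91. These 4 genes held 1021 UMIs in Rad21-/- and 208 in wild-type cells. In Rad21-/- cells 6 cells with at least 10 UMIs of the 4 genes held 89.4% of them, the highest with 451 UMIs, and in wild-type cells 2 such cells held 60.6%. Without those 8 cells the log2 ratio of the sum was 0.20 in place of 2.10. Cells with no UMI of the 4 genes made up 71.5% of Rad21-/- and 76.9% of wild-type cells, and the summed level of the class II list was higher in 6 pools and lower in 2. After LPS the median of the 4 genes was -0.38 at 2 h and -1.17 at 8 h. What kind of cell the 8 cells were was not tested. The dendritic cell list, of which 5 of 10 genes were among the matrix rows, was at 697 CPM in Rad21-/- and 1217 CPM in wild-type cells, mostly from Bst2, and its defining members Flt3 and Zbtb46 held 9 and 43 UMIs in Rad21-/- and 4 and 32 in wild-type cells.

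Receptors of the macrophage surface moved in both directions. Of 22 compared receptor genes 10 were at least 1.5-fold lower and 2 at least 1.5-fold higher, with a median of -0.39, while the summed level of the list was slightly higher in Rad21-/- cells (log2 ratio 0.14). Beside Clec4e and Cd14, lower levels were found for the Fc receptors Fcgr4 (-1.17) and Fcgr2b (-1.04), the scavenger receptors Cd36 (-0.86) and Msr1 (-0.84), Clec4d, the partner of Clec4e (-0.83), and Adgre1, the antigen F4/80 (175 CPM against 315 CPM, -0.85, -1.07 to -0.63). Trem2, a lipid receptor, was at 914 CPM in Rad21-/- and 572 CPM in wild-type cells (0.67, 0.55 to 0.80) and its signalling partner Tyrobp at 2959 CPM and 1881 CPM (0.65, 0.59 to 0.72), both higher in all 8 pools. Csf1r, the receptor that sustains macrophages, had 0.49 (0.32 to 0.67) and was also higher in all 8 pools, though its pool ranges overlapped. Mrc1 (0.05) and Itgam (-0.22) were within 1.5-fold.

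The macrophage markers taken as a whole were lower, at 8985 CPM in Rad21-/- and 12457 CPM in wild-type cells, mostly through Lyz2, whose lysozyme transcript was at 3388 CPM against 6487 CPM (-0.94, -0.99 to -0.89). The markers Cd68 (0.38), Csf1r, C1qa, C1qb, Fcgr1, Itgam, Mrc1 and Ms4a7 lay within 1.5-fold. Of the complement list, 3 of 7 compared genes were at least 1.5-fold lower: C5ar1, C3ar1, the receptor for C3a (-0.71), and Cfp, properdin (-0.73).

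Lysosomal genes lay on both sides. Of 20 compared genes 6 were at least 1.5-fold higher and 3 lower, and the median was 0.28. Higher levels were found for Cd63, described above, for Lamp1, the main lysosomal membrane protein (1952 CPM against 1063 CPM, 0.88, 0.79 to 0.97), for Ctsa (0.74), for Lgmn, an asparaginyl protease (0.69), and for Hexa (0.67), among others, and all 6 were higher in all 8 pools. The 3 lower genes were the lysozymes Lyz1 (-1.19) and Lyz2 and the protease cathepsin S, Ctss (1034 CPM against 2068 CPM, -0.9996, -1.09 to -0.91), which trims the class II invariant chain. Lyz1 and Lyz2 are near-identical copies, and reads may have been assigned to either. Ctsb (0.29) and Ctsl (0.03) were within 1.5-fold.

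Transcription factors of the macrophage lineage were mostly within 1.5-fold. Spi1, which encodes PU.1, had -0.42 (-0.62 to -0.23) and was lower in all 8 pools, and Irf8 (-0.31), Runx1 (-0.20), Maf (0.16) and Zeb2 (-0.04) had smaller differences with intervals that include 0. Of 10 compared factors 3 were past 1.5-fold, all lower in all 8 pools: Id2, Cebpb, a factor of inflammatory gene expression (57.05 CPM against 153.6 CPM, -1.42, -1.79 to -1.07), and Klf6 (-0.84). Of the immediate-early genes, 4 of 6 compared were at least 1.5-fold lower, among them Atf3 (-1.62, -2.11 to -1.18) and Jun (-1.01). In the Tlr4 pathway 1 of 7 compared genes, Cd14, was past 1.5-fold, and Tlr4 itself had -0.27 (-0.71 to 0.17).

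Genes of the cell cycle were lower in Rad21-/- cells. Of 8 compared S phase genes 6 were at least 1.5-fold lower and 0 higher, with a median of -1.35, and 14 compared genes of G2 and mitosis had 10 lower and 0 higher, with a median of -0.90, which was -0.39 after each cell was thinned to 3000 UMIs. Pcna, the replication clamp, was at 117 CPM in Rad21-/- and 308 CPM in wild-type cells (-1.40, -1.65 to -1.15) and was lower in all 8 pools, and Mcm6, of the replicative helicase, had -1.98. Ube2c, a ubiquitin ligase partner of mitosis, was at 29.7 CPM against 102 CPM (-1.75), Top2a, which untangles chromosomes, at 46.7 CPM against 109 CPM (-1.21), and Mki67 at 47.9 CPM against 89.3 CPM (-0.89). The pool values of the mitotic genes were uneven: the summed level of the list was lower in 6 of 8 pools, with log2 ratios from -2.05 to 0.28, and Mki67 ran from 0 to 146.4 CPM in Rad21-/- and from 53.7 to 115.4 CPM in wild-type pools. The summed level of the S phase list was lower in all 8 pools, from -1.82 to -0.64. Its median over compared genes was -0.71 without pool 2, although pool 2 itself had a median of -1.21. Leaving out a pool leaves fewer UMIs and can change which genes reach the minimum, so that median need not cover the same genes. In bulk sums of this kind fewer cycling cells and less RNA per cycling cell cannot be told apart, and the shares of cells without a UMI do not separate them. Cells with no UMI of Mki67 or Top2a made up 74.9% of Rad21-/- and 59.7% of wild-type cells. At 3000 UMIs per cell, 26.7% of Rad21-/- (21.3 to 32.6) and 14.2% of wild-type cells (9.87 to 19.6) had no UMI of the mitotic list.

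In the cells without Mki67 or Top2a UMIs, 200 Rad21-/- and 142 wild-type, the medians of the 3 lists given next stayed below 0. These cells cannot be called non-cycling, since the S phase median was -1.42 among them. The median of the interferon-stimulated genes was -1.47 there, that of the inflammatory genes -1.49 and that of the MHC class I genes -0.77, and the log2 ratios of 45 of the 46 named genes moved by less than their counting interval. The cholesterol list was at -0.61 in these cells against -0.26 in all cells.

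Of the regulators of cell cycle entry, Ccnd1 was at 19.4 to 97.1 CPM in the pools of Rad21-/- cells (median 59.7 CPM) and at 246 to 681.7 CPM in those of wild-type cells (median 367.0 CPM), without overlap (log2 ratio -2.48, -2.79 to -2.19). Its partner Cdk6 (-1.04) and the inhibitor Cdkn1a, p21 (-1.08), were lower in all 8 pools, while Cdk4 (0.20) had an interval that includes 0 and Ccnd3 was at 0.51 (0.10 to 0.94). Of 8 compared p53 targets 2 were lower, Cdkn1a and Mdm2 (-0.72), and 1 was higher, Sesn1 (0.68). The median of 0.15 was below 0 without pool 1, 2, 4, 5 or 8 (-0.23 without pool 2) and after thinning (-0.15). Pools 2 and 4 themselves had medians above 0 (0.45 and 0.28), but pools 1, 5 and 8 had medians below 0 (-0.11, -0.15 and -0.37). Leaving out a pool and thinning leave fewer UMIs, so the medians obtained that way need not cover the same 8 genes. Of the Bcl2 family, the survival factors Bcl2l1 (-1.68, -2.09 to -1.31) and Mcl1 (-0.64) were at least 1.5-fold lower and 0 of 6 compared members were 1.5-fold higher.

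Lipid handling and cytoskeletal genes had smaller differences by median with a few large ones. In the cholesterol list 7 of 19 compared genes were at least 1.5-fold lower and 1 higher. Lipid uptake and storage genes were the lowest, with Lpl, Fabp4, a fatty acid carrier (52.2 CPM against 253 CPM, -2.26, -2.63 to -1.93), Plin2, which coats lipid droplets (-1.66), and Apoe (-0.77, lower in 6 pools). Of the 10 compared synthesis genes 2 were lower, Fdps (-0.81) and Sqle (-0.72), and 1 was higher. The actin list also held genes of other proteins, such as Vim, Anxa1 and Lgals3. Of its 23 compared genes 9 were at least 1.5-fold lower and 0 higher, with a median of -0.37. Vim, the intermediate filament protein vimentin, was at 684 CPM against 1607 CPM (-1.23, -1.34 to -1.13), Lgals3 at 2379.5 CPM against 5166 CPM (-1.12), Tagln2 had -1.21 and Coro1a -1.09, whereas Tmsb4x (-0.02), Cfl1 (-0.19) and Lgals1 (0.21) were within 1.5-fold. Actb had -0.37 and was lower in all 8 pools.

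All 11 compared ER stress genes were below 0, with a median of -0.43. Of these, 4 were at least 1.5-fold lower. Among the 4 were the transcription factors Ddit3 (-1.32) and Atf4 (-0.82) and the chaperone Hspa5 (-0.82). Of the 9 compared antioxidant genes 3 were lower, Txnrd1 (-0.94), Gpx1 (-0.87) and Prdx1 (-0.61), while Hmox1 had -0.09, and of 5 compared iron genes 1 was lower, the transferrin receptor Tfrc (-1.08), while the ferritins Fth1 (-0.03) and Ftl1 (0.02) were nearly level. Energy metabolism differed little. Of 29 compared oxidative phosphorylation genes 1 was lower, Cycs (-0.75), and 1 higher, Uqcrh (0.81), with a median of 0.07, and of 11 compared glycolysis genes 0 were past 1.5-fold, with a median of -0.16. The lists of T and NK cells, mast cells, eosinophils, stromal cells and monocytes were each at no more than 73.3 CPM in either sample. In the same order, 4 of 12, 2 of 9, 1 of 7, 5 of 8 and 4 of 9 genes were matrix rows. A low sum therefore does not show that these cells were absent. The erythroid and megakaryocyte list, of which 3 of 12 genes were among the matrix rows, was at 438 CPM in Rad21-/- and 282 CPM in wild-type cells, mostly from Pf4, a chemokine of platelets that macrophages can also express (548 and 323 UMIs).

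**Figure D4:**
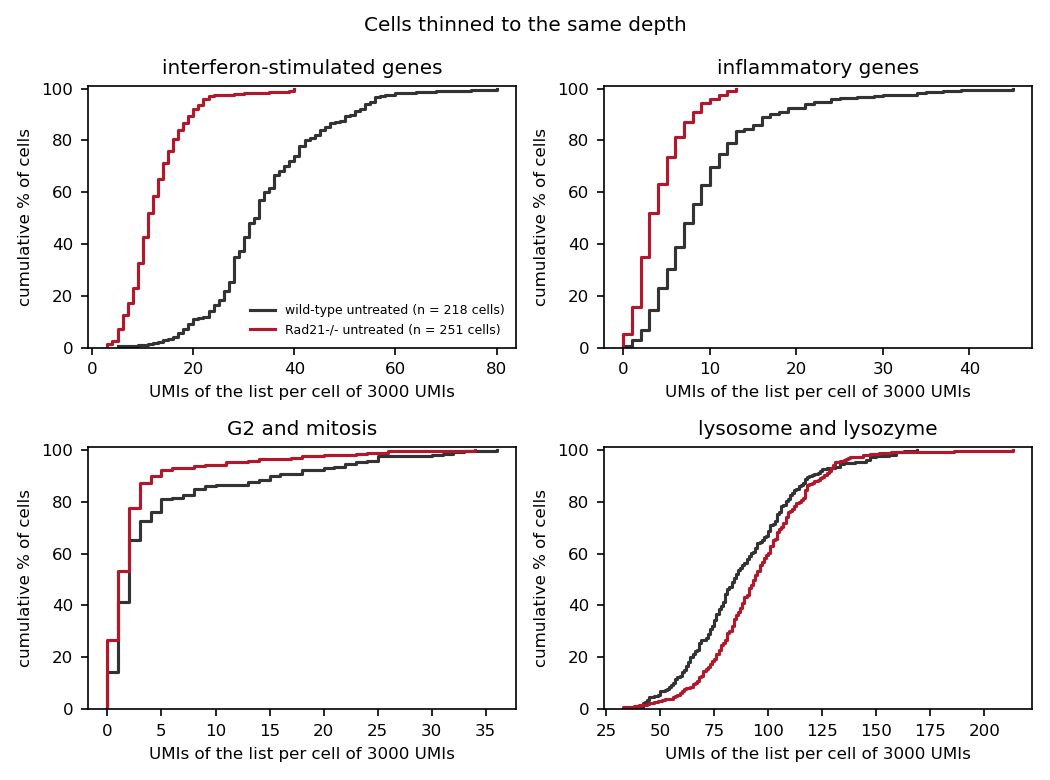
The cumulative percentage of cells (vertical axis) is shown by the number of UMIs of a gene list per cell thinned to 3000 UMIs (horizontal axis), for 251 Rad21-/- (red) and 218 wild-type (black) cells. The curves of the interferon-stimulated and inflammatory lists are shifted to lower counts over their whole range in Rad21-/- cells, with medians of 11 against 32.5 and 3 against 8 UMIs, while the mitotic curves differ mostly in the cells with few or no UMIs and in a tail of wild-type cells, and the lysosomal medians are 94 and 84 UMIs.

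The samples of cells given 10 ng/ml of LPS are separate samples that the comparison at rest did not use. They held 184 Rad21-/- and 181 wild-type cells at 2 h and 222 and 253 at 8 h. Of the 425 genes lower at rest in at least 7 pools, 396 (93.2%) were also below 0 at 2 h and 306 (72%) at 8 h, where 43.2% and 29.6% of all compared genes were below 0. Of the 219 genes higher at rest, 209 (95.4%) and 197 (90%) were above 0, where 56.8% and 70.4% of all compared genes were. The median of all compared genes was 0.07 at 2 h and 0.25 at 8 h, so that the ratios at 8 h were read against a higher centre. The median ratio of the lower genes went from -0.94 at rest to -0.76 at 2 h and -0.46 at 8 h, and that of the higher genes from 0.79 to 0.86 and 0.89.

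Of the genes named for their ratio, all 24 lower and all 22 higher ones were on the same side at 2 h and at 8 h. Some ratios came close to 0 after LPS, as for Clec4e (-1.20 at 2 h and -0.05 at 8 h) and C5ar1 (-1.29 and -0.22), both of which were at least 6-fold lower at rest. That of Ccl7 was smaller after LPS than at rest (-2.36 and -2.56), and that of Cd52 was close to its value at rest (-2.11 and -2.05). Others were larger at 8 h than at rest, as for Id2 (-3.48, from 56 against 570 UMIs) and Ighm (3.52, from 267 against 20 UMIs). That of Ltc4s was 3.83 at 8 h, from 78 against 4 UMIs, which lay within its counting interval at rest. Rad21 had -2.55 and -2.21. The median of the interferon-stimulated genes was -1.05 at 2 h and -0.97 at 8 h, with 34 and 36 of the 36 genes below 0. The mitotic genes had a median of -1.72 at 2 h and 0.33 at 8 h. These are values of 3 pairs of samples, and the change of a ratio between times was not tested.

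**Figure D5:**
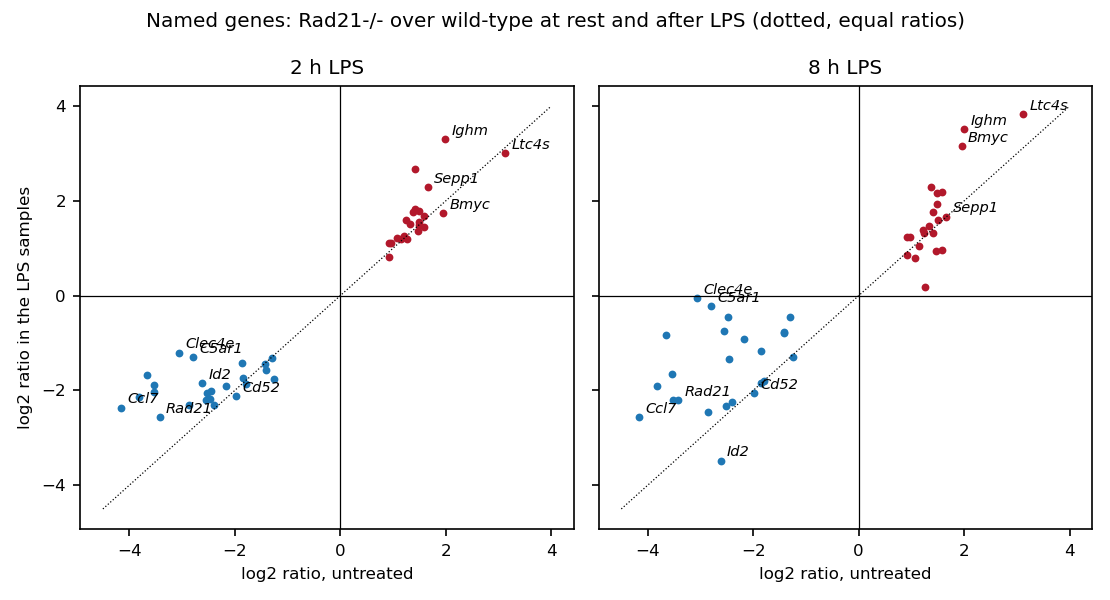
Each point is a named gene, with its log2 ratio of Rad21-/- over wild-type at rest on the horizontal axis and after 2 h (left) or 8 h (right) of LPS on the vertical axis, and a dotted line at equal ratios. Blue points are lower and red points higher at rest, and all stay on their side of 0, with Clec4e and C5ar1 nearest to 0 at 8 h among the lower genes.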

How the data were processed

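The authors sorted single macrophages into 384-well plates, made MARS-seq libraries, mapped the reads to GRCm38.p4, kept reads with an unambiguous gene and collapsed them by UMI. The deposited values are raw UMI counts for each gene in each cell and carry no normalization. Per the study's methods there was a filter on spike-in and mapped reads per well. Strand use in counting is not given in the sources used here.

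UMIs were summed over the cells of a sample, after 4 untreated wells above 25000 UMIs were left out, and divided by the sample total (CPM). The log2 ratio had 1 UMI added to each sample, and genes with at least 100 UMIs over both samples were compared. Because each genotype was 1 sample, no test was run. Ratios carry exact conditional, CPM exact Poisson and shares Clopper-Pearson 95% intervals and reflect counting error alone. A fold of 1.5 and the same side in at least 7 of 8 pools stood in for a test. Pools were read from the cell names and numbered 1 to 8. Named genes were Rad21, the 15 lowest and 15 highest ratios, and the 10 lowest and 10 highest with at least 1000 UMIs, on the same side in at least 7 pools and with no cell over 25% of the UMIs of the higher sample. Members of gene lists with the largest ratio or a defining role were also named. The members and lists were chosen with earlier results of these data known. Gene positions and promoters came from RefSeq (GRCm38.p6). 1 symbol given to 2 rows was left out of naming. No doublet caller was run on these sorted wells. Alternatives were another scaling, weighting, minimum, fold, added UMI, thinning, and leaving out each pool. A few genes that met these rules are not reported here. Steps were tested on simulated data. Python 3.11.15, numpy 2.4.6, pandas 2.3.3, scipy 1.17.1 and matplotlib 3.10.9 were used.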

Additional observations from a re-analysis of the deposited data

How the results depend on the processing

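No alternative turned the direction of a named gene. Of their log2 ratios under the alternatives 628 moved by less than the counting interval and 16 by more, and of their shares of cells 69 and 66. The cause of the moves was not tested. The planned restriction to cells without a UMI of the S phase and mitosis lists was not run because it left 5 Rad21-/- cells and 1 wild-type cell. Restriction to cells without a UMI of Mki67 or Top2a was chosen after seeing the data in its place. Reading the side in each pool without an added UMI was also chosen after seeing the data. No paired analysis was possible because each genotype was 1 sample, and mice, cultures and genotype cannot be told apart. Genes under about 100 UMIs are limited by counting error.

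The 553 genes lower and 279 higher by 1.5-fold became 3471 and 2166 with a minimum of 1 UMI, 1074 and 523 with 50, 237 and 163 with 200, 240 and 170 after thinning to 3000 UMIs, 201 and 62 at 2-fold, 742 and 187 with scaling to the median ratio of abundant genes, and 316 lower in cells without a UMI of Mki67 or Top2a. The 425 lower and 219 higher in at least 7 pools became 1760 and 424 with a minimum of 1 UMI, 685 lower with 50, 215 lower with 200, 197 and 121 after thinning, 189 and 53 at 2-fold, 264 lower in those cells and 136 higher with the scaling. The fewer genes at higher minimums follow from fewer genes compared. Thinning, the restriction to cells without a UMI of Mki67 or Top2a and leaving out a pool all leave fewer UMIs. Fewer genes may then reach the minimum, and the numbers of genes compared there are not given. Counts from these alternatives therefore cannot be set directly against the 553 and 279 or the 425 and 219. Leaving out each pool gave 415 to 545 lower and 243 to 275 higher genes, and 350 to 462 and 209 to 242 with the pool criterion.

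Of the list medians, in cells without a UMI of Mki67 or Top2a those of G2 and mitosis, cholesterol, inflammatory, interferon-stimulated, lysosomal, ribosomal and surface receptor genes moved to -0.48, -0.61, -1.49, -1.47, 0.23, 0.10 and -0.25. Thinning moved G2 and mitosis to -0.39, MHC class I to -0.96, cholesterol to -0.56, lysosomal to 0.19, p53 targets to -0.15 and ribosomal to 0.11. The scaling moved interferon-stimulated to -1.47, actin to -0.47, lysosomal to 0.17, oxidative phosphorylation to -0.029, ribosomal to 0.060 and surface receptors to -0.50. Equal weight per pool moved actin to -0.42, lysosomal to 0.19, ribosomal to 0.11 and surface receptors to -0.49, and equal weight per cell moved G2 and mitosis to -1.07. Members from 20 UMIs moved MHC class I to -0.92, p53 targets to -0.10 and surface receptors to -0.52. The sign of the median of p53 targets and of oxidative phosphorylation was thus not stable. Fewer cells or UMIs, or a lower minimum, can change which members are compared, so these medians need not cover the same genes.

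Leaving out each pool gave Rad21 log2 ratios of -3.73 to -3.31 and medians of -1.39 to -1.29 for interferon-stimulated, -0.84 to -0.74 for MHC class I, -1.97 to -1.65 for inflammatory, -1.58 to -0.71 for S phase (-0.71 without pool 2), -1.12 to -0.82 for G2 and mitosis, -0.40 to -0.35 for actin, -0.41 to -0.26 for cholesterol, 0.23 to 0.30 for lysosomal, 0.06 to 0.11 for oxidative phosphorylation, 0.12 to 0.19 for ribosomal and -0.39 to -0.30 for surface receptor genes. For p53 targets they were -0.23 to 0.17, below 0 without pool 1, 2, 4, 5 or 8. The MHC class I medians all lay below the value of -0.72 with all pools. Leaving out a pool can change which members reach the minimum, so the list medians given here need not cover the same genes. The share of cells with Rad21 differed by -14.7 percentage points at 3000 UMIs, by -23.0 with all UMIs and by -1.83 with at least 2 UMIs per positive cell.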
